A study of Mus musculus with 6 samples.

Results

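The 10 genes Fcgr1, Fcgr2b, Fcgr3, Fcgr4, Fcer1g, Fcrl1, Fcrl5, Fcrla, Fcmr and Fcgrt make up the Fc receptors and Fc receptor-like genes followed here in RNA-seq libraries from mouse. They were chosen by gene symbol from the 41325 gene rows of each table, and 10 of 10 were found. All 6 libraries came from female ICR mice, an outbred stock, aged 10 weeks when bought, habituated for 7 days and kept on commercial chow. Each mouse received 5-fluorouracil (5-FU), an antimetabolite given as chemotherapy, by intraperitoneal injection at 20 mg/kg on each of 2 days a week over 3 weeks. The elemental diet group (3 libraries) also received 1.6 kcal in 0.8 mL per day of a liquid elemental diet by mouth, 2 times a day and 5 times a week, and the saline control group (3 libraries) the same volume of saline. No group without 5-FU was analysed here, so the question the design allows is how the transcripts differ between diet and saline under 5-FU.

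Library totals ran from 29053287 to 33073125 reads assigned to genes, so that a count of 0 still allows 0.0907 to 0.103 CPM, reads per 1000000 assigned reads (the limit is 3 reads and covers counting error only). The label names salivary gland, without saying which, but defining markers of that tissue were at or near 0. Of 15 salivary markers found in the tables, 5 (Smgc, Pip, Bpifa1, Prb1 and Dcpp1) had no read in any library, and Aqp5, the water channel of acinar cells, had 4 reads over the 3 elemental diet libraries and 2 over the 3 saline libraries. The tissue name stands here only as a label. Red cell and immunoglobulin transcripts separated the groups: hemoglobin genes took 3.43% ± 0.121 of reads on elemental diet and 0.370% ± 0.0997 on saline, and immunoglobulin genes 0.380% ± 0.0389 and 3.30% ± 0.200 (SD, n = 3 libraries throughout). Since the labels do not say that each library is a separate mouse, p-values reflect only the spread from library to library, which may be technical. In bulk RNA, fewer cells of a type and less RNA per cell cannot be told apart.

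Fc receptors bind the constant part of antibodies. The activating receptors for immunoglobulin G (IgG), Fcgr1, Fcgr3 and Fcgr4, sit on macrophages, monocytes, neutrophils or natural killer (NK) cells, and signal through the common chain encoded by Fcer1g, whose tail carries an activation motif with paired tyrosines (ITAM). Fcgr2b carries an inhibitory motif (ITIM) in its own tail and restrains B cells, in which it is the only classical IgG receptor, as well as myeloid cells. Fcrl1, Fcrl5 and Fcrla are Fc receptor-like genes of the B lineage, Fcmr encodes the receptor for immunoglobulin M (IgM), and Fcgrt encodes the heavy chain of the neonatal receptor FcRn, which pairs with beta-2 microglobulin and returns IgG and albumin to the circulation.

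The coding sequences of the activating and the inhibitory motif are shown because they set apart the signals of these receptor genes, activating through Fcer1g and inhibitory through Fcgr2b. They are written 5′ to 3′ from the GENCODE M21 transcripts, with the tyrosine codons of the motif in capitals. The Fcer1g stretch (GRCm38 chr1:171229883-171230078, minus strand, exons 4 and 5 of 5, coding) and the Fcgr2b stretch (chr1:170961056-170961198, minus strand, exons 9 and 10 of 10, coding) each span an intron.
Fcer1g activation motif: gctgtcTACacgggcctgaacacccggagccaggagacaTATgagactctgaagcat
Fcgr2b inhibitory motif: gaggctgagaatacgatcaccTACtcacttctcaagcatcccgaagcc

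Fcgr2b and Fcgr3, which carry opposite signals, are nearly identical over part of their extracellular domains, and the longest run of bases their coding sequences share is given here because a read pair that lies wholly within it matches both genes. It is 129 bases long and lies in exons 5 and 6 of Fcgr2b (chr1:170966674-170968081, minus strand) and exons 3 and 4 of Fcgr3 (chr1:171054167-171057792, minus strand).
Fcgr2b and Fcgr3 shared run: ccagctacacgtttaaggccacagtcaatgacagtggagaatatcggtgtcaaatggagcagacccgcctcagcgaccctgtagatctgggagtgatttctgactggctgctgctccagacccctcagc

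Of the 75-base windows of Fcgr3 exons, 94 of 1733 (5.42%) also occurred in Fcgr2b. The other pairs among the 4 Fcgr genes shared runs of at most 14 bases. Of all reads assigned to the genes, 98.3% were unique for Fcgr2b and 98.4% for Fcgr3 by the authors' counting. The lowest unique share among the 10 genes was 77.9%, for Fcgrt.

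All 10 receptor genes were lower on elemental diet. The quasi-likelihood test of edgeR, at a Benjamini-Hochberg adjusted p under 0.05, called 78.1% of 18303 genes, 40.2% lower and 38% higher, so that a fall in a given gene was common. The groups of libraries did not overlap for 10 of 10 receptor genes, against 41.9% of all genes in that direction. The sizes of the falls ran from 1.30-fold for Fcer1g to 9.28-fold for Fcgr4, with a median log2 fold change of -2.27 beside -0.08 over all genes. All but Fcgr1, Fcer1g and Fcgrt, 7 of the 10, were over 2-fold lower, as were 23.7% of all genes, and 5 (Fcgr2b, Fcgr4, Fcrl1, Fcrla and Fcmr) were over 4-fold lower, as were 9.15% of all genes. Without scaling for composition the median of all genes moved to -0.39 and the calls over all genes split into 9265 lower and 5407 higher, against 7352 and 6951 with the TMM scaling used here. The smallest fall, that of Fcer1g, lay 0.30 below the median of all genes on the log2 scale under either scaling.

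**Figure D1:**
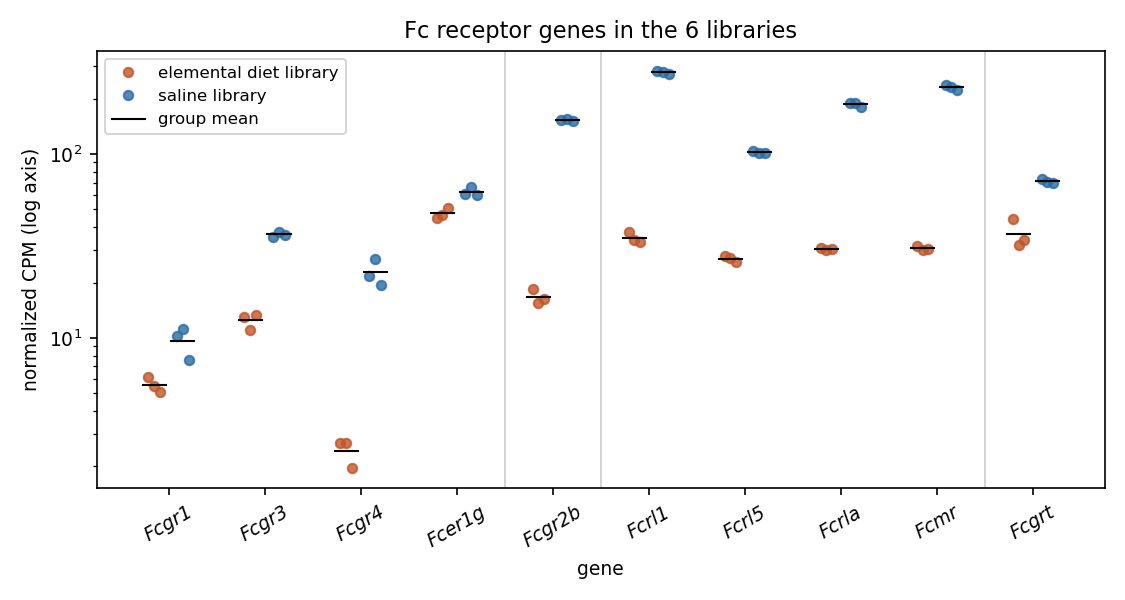
Normalized CPM (log scale) of the 10 Fc receptor genes in each library, with points for the 3 elemental diet and the 3 saline libraries and bars for the group means. In each gene every elemental diet library lies below every saline library, and the gap on the log scale is narrowest for Fcer1g, with 45.1 to 51.2 CPM against 59.5 to 65.8.

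The activating receptors and their common chain fell by unequal amounts. Fcgr4 (ENSMUSG00000059089, chr1:171018920-171029761), the receptor for IgG2 subclasses on monocytes, macrophages and neutrophils, stood at 2.68, 2.69 and 1.95 normalized CPM in elemental diet libraries 1 to 3, and at 21.8, 27.0 and 19.5 CPM in saline libraries 1 to 3. The lowest saline library was thus far above the highest elemental diet library. Its means were 2.44 ± 0.422 and 22.8 ± 3.85 CPM (edgeR adjusted p = 3.8e-10, log2 fold change -3.21, SE 0.16). Fcgr4 had the fewest reads of the 10 genes on elemental diet, 202 in sum, against 2287 on saline.

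Fcgr3 (ENSMUSG00000059498, chr1:171051174-171064935), the low-affinity activating receptor of macrophages, mast cells and NK cells, stood at 13.0, 11.02 and 13.3 CPM on elemental diet and at 35.5, 37.9 and 36.4 CPM on saline. The groups were tight and well apart, and Fcgr3 was 2.95-fold lower (edgeR adjusted p = 6.7e-10, log2 fold change -1.56, SE 0.09). Fcgr1 (ENSMUSG00000015947, chr3:96282909-96293969), the high-affinity IgG receptor of monocytes and macrophages, stood at 6.10, 5.48 and 5.08 CPM on elemental diet and at 10.2, 11.2 and 7.54 CPM on saline. Its groups came close to each other, on saline library 3 the lowest of its group, and the fall was 1.74-fold (edgeR adjusted p = 0.00049, log2 fold change -0.80, SE 0.16).

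Fcer1g (ENSMUSG00000058715, chr1:171229572-171234365), the common chain, stood at 45.1, 46.7 and 51.2 CPM on elemental diet and at 60.3, 65.8 and 59.5 CPM on saline. The groups did not overlap, but the nearest libraries were 51.2 and 59.5 CPM. It was 1.30-fold lower (edgeR adjusted p = 9.9e-05, log2 fold change -0.38, SE 0.06), and 41.2% of all genes tested had a lower log2 fold change than Fcer1g. The fitted fall of the common chain was smaller than those of Fcgr1, Fcgr3 and Fcgr4, the receptors that signal through it.

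Fcgr2b (ENSMUSG00000026656, chr1:170958617-170976547), the inhibitory receptor, stood at 18.4, 15.4 and 16.4 CPM on elemental diet and at 153, 154 and 151 CPM on saline. The saline libraries lay within a few CPM of each other, and every elemental diet library was far below them. Fcgr2b was 9.14-fold lower (edgeR adjusted p = 3.3e-14, log2 fold change -3.19, SE 0.07), a fall close in size to that of Fcgr4, and 1.88% of all genes had a lower log2 fold change.

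The B lineage genes all fell, by unequal amounts from 3.78-fold to 7.99-fold. Fcrl1 (ENSMUSG00000059994, chr3:87376387-87402934), a surface protein of mature B cells, stood at 37.6, 34.1 and 33.1 CPM on elemental diet and at 284, 281 and 273 CPM on saline (edgeR adjusted p = 2.4e-14, log2 fold change -3.00, SE 0.06). Fcmr (ENSMUSG00000042474, chr1:130865669-130880791), the IgM receptor, stood at 31.7, 29.9 and 30.5 CPM on elemental diet and at 238, 231 and 223 CPM on saline (edgeR adjusted p = 1.4e-14, log2 fold change -2.91, SE 0.05). In both genes the spread within a group was a small part of the gap between the groups.

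Fcrla (ENSMUSG00000038421, chr1:170917576-170927583), an intracellular Fc receptor-like protein of B cells, stood at 30.9, 30.1 and 30.6 CPM on elemental diet and at 190.2, 189.8 and 181 CPM on saline (edgeR adjusted p = 2.6e-14, log2 fold change -2.62, SE 0.05). Fcrl5 (ENSMUSG00000048031, chr3:87435773-87500678), which in mouse marks marginal zone B cells and B-1 cells, stood at 28.0, 27.1 and 26.0 CPM on elemental diet and at 104, 102 and 101 CPM on saline (edgeR adjusted p = 6.3e-13, log2 fold change -1.92, SE 0.05). Fcrl5 had the smallest fall of the 4 B lineage genes, 3.78-fold against 6.13-fold for Fcrla.

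Fcgrt (ENSMUSG00000003420, chr7:45092990-45103851), the neonatal receptor, stood at 44.5, 32.1 and 34.2 CPM on elemental diet and at 73.6, 70.9 and 69.3 CPM on saline. Elemental diet library 1 was the highest of its group, still well under the saline libraries. Fcgrt was 1.93-fold lower (edgeR adjusted p = 2.1e-05, log2 fold change -0.95, SE 0.11). An antisense gene, Gm45669, overlaps Fcgrt over 5331 bases and had 6 reads on elemental diet and 54 on saline. The sources used here do not say whether strand was used in counting, so reads of the 2 genes may be mixed.

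**Figure D2:**
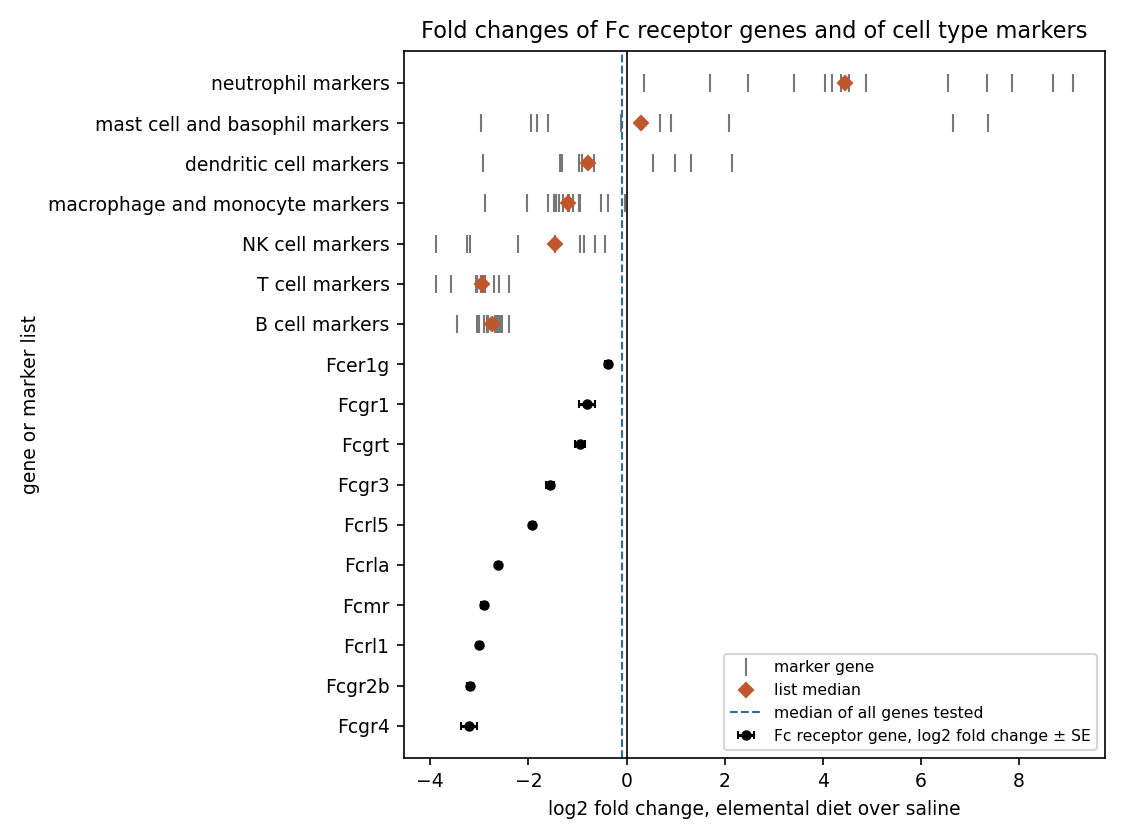
Log2 fold change, elemental diet over saline, of the 10 Fc receptor genes (black points, bars of 1 SE) and of the tested genes of 7 cell type marker lists (ticks, with the list median as a diamond); the dashed line is the median of all genes tested, -0.08. Fcgr4, Fcgr2b, Fcrl1 and Fcmr lie near -3, close to the medians of the B cell (-2.74) and T cell markers (-2.94), while Fcer1g at -0.38 lies nearest the median of all genes.

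Ratios of reads within a library need no scaling between libraries and show which receptors changed unequally. In all, 11 ratios were computed on the log2 scale, of which 8 are described, and with 3 against 3 libraries the exact two-sided permutation test cannot go below p = 0.1, so no ratio could pass a threshold of 0.05. Fcgr2b had 1.35 reads for each read of Fcgr3 on elemental diet and 4.18 on saline. The log2 ratio was 0.43 ± 0.11 and 2.06 ± 0.04, with groups that did not overlap (exact permutation p = 0.1, adjusted 0.138 over the 11 ratios). Within the libraries, the inhibitory receptor was thus less abundant relative to Fcgr3 on elemental diet, by 3.10-fold.

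Among the activating receptors, Fcgr4 had 0.196 reads per read of Fcgr3 on elemental diet and 0.617 on saline, and Fcgr1 had 0.447 and 0.261. The first ratio was 3.15-fold lower on elemental diet and the second 1.72-fold higher, so the 3 receptors that share the common chain did not move in proportion. Fcgr3 itself had 0.261 reads per read of Fcer1g on elemental diet and 0.592 on saline, a ratio 2.27-fold lower. For each of these 3 ratios the groups did not overlap, and the exact permutation p was 0.1 (adjusted 0.138).

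Among the B lineage genes, Fcrl5 had 0.774 reads per read of Fcrl1 on elemental diet and 0.367 on saline, and Fcrla had 0.874 and 0.669 reads per read of Fcrl1. Both ratios were higher on elemental diet, by 2.11-fold and 1.31-fold, without overlap of the groups (exact permutation p = 0.1, adjusted 0.138).

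The ratios of Fcmr and Fcgrt to a partner overlapped between the groups. The log2 ratio of Fcmr to Ighm, which encodes the heavy chain of its ligand IgM, was -5.14 ± 0.08 and -5.24 ± 0.10 (exact permutation p = 0.3, adjusted 0.33). Fcgrt to B2m, which encodes its partner beta-2 microglobulin, was at -4.56 ± 0.24 and -4.47 ± 0.05 (exact permutation p = 0.6, adjusted 0.6). For these pairs the difference between the groups was within the spread between libraries.

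**Figure D3:**
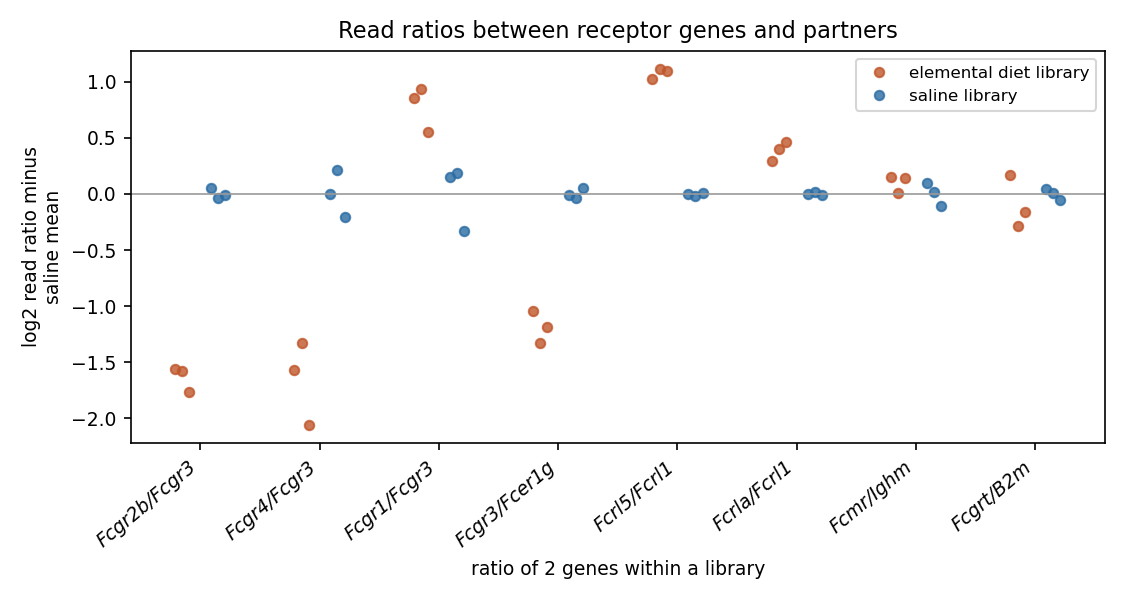
Log2 ratio of reads between 2 genes in each library for the 8 pairs described, less the mean of the saline libraries, with points for the 3 elemental diet and the 3 saline libraries. Fcgr2b/Fcgr3, Fcgr4/Fcgr3 and Fcgr3/Fcer1g lie more than 1 unit below the saline mean, Fcrl5/Fcrl1 lies more than 1 unit above it, and Fcmr/Ighm and Fcgrt/B2m overlap.

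Summed over each class, the B lineage genes fell further than the myeloid ones, with the common chain Fcer1g counted as myeloid. Fcgr1, Fcgr3, Fcgr4 and Fcer1g together stood at 66.9, 65.9 and 71.5 CPM on elemental diet and at 128, 142 and 123 CPM on saline, a 1.92-fold difference. Fcer1g, which fell 1.30-fold, held 47.7 of the mean 68.1 CPM on elemental diet and 61.9 of 131 on saline. The size of the contrast between the classes thus depends on counting Fcer1g. Fcgr1, Fcgr3 and Fcgr4 fell by 1.74-fold, 2.95-fold and 9.28-fold, and no sum without Fcer1g was computed. Fcrl1, Fcrl5, Fcrla and Fcmr together stood at 128, 121 and 120.1 CPM on elemental diet and at 816, 804 and 777 CPM on saline, a 6.49-fold difference. The B lineage sum was 1.81 ± 0.122 times the myeloid sum on elemental diet and 6.12 ± 0.397 times on saline. These sums are a description with no test, since the genes were grouped with earlier results of these data known. Within the myeloid class Fcgr4 had a log2 fold change of -3.21 (SE 0.16), close to the -3.00 (SE 0.06) of Fcrl1, and the order of these 2 genes was not tested.

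Levels of different genes were compared by the deposited TPM, a measure of transcripts that accounts for length. With saline, Fcmr was the most abundant at 429 ± 16.4 TPM, followed by Fcrla at 249.9 ± 5.83, Fcer1g at 228 ± 11.7, Fcrl1 at 146 ± 4.98 and Fcgrt at 103 ± 4.86 TPM. Fcgr3 (68.6 ± 2.14 TPM), Fcgr4 (52.8 to 74.6) and Fcgr2b (60.4 ± 1.55) followed without a clear order, since the libraries of neighbouring genes overlapped. Fcrl5 at 32.0 ± 0.928 and Fcgr1 at 12.0 ± 2.79 TPM were lowest.

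With elemental diet the order differed. Fcer1g led at 133 ± 6.42 TPM, above Fcmr at 43.0 ± 2.09 and Fcgrt at 42.9 ± 8.05 TPM, which overlapped. Fcrla followed at 29.1 ± 1.18 TPM, then Fcgr3 at 17.3 ± 1.83 and Fcrl1 at 14.7 ± 1.05 TPM, which overlapped, and Fcrl5 at 8.34 ± 0.668. Fcgr2b (5.29 ± 0.614 TPM), Fcgr1 (5.13 ± 0.749) and Fcgr4 (4.97 ± 0.875) were lowest and could not be ordered. The common chain thus ranked below Fcmr and Fcrla on saline and above all 9 other genes on elemental diet.

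**Figure D4:**
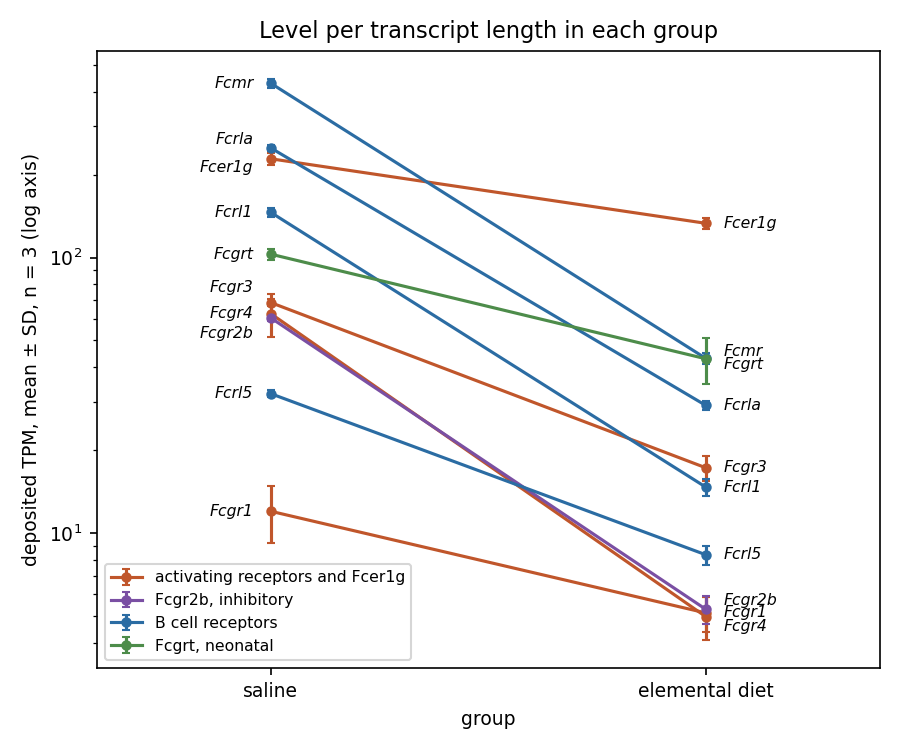
Deposited TPM (log scale) of the 10 Fc receptor genes, each point the mean of the 3 libraries of a group with bars of 1 SD and a line joining saline to elemental diet. Fcer1g goes from the third place on saline (228 TPM) to the first on elemental diet (133 TPM), since the lines of Fcmr and Fcrla fall more steeply. The deposited TPM were not TMM scaled, so the slopes show the order within each group and are not the tested fold changes.

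Part of the reads of some of these genes lay in introns, and this share differed from gene to gene. Introns held 59.0% ± 5.36 of Fcrl5 reads on elemental diet and 68.9% ± 1.49 on saline, the largest share of the 10 genes. For Fcrl1 the shares were 43.2% ± 1.04 and 46.9% ± 0.779, for Fcrla 36.8% ± 0.914 and 33.4% ± 1.51, and for Fcgr2b 30.6% ± 2.65 and 34.7% ± 0.438. Over whole libraries, introns held 8.64% ± 0.225 of reads on elemental diet and 14.0% ± 0.341 on saline, so these 4 genes were well above the library share in both groups. With exon reads alone, Fcrl5 had a log2 fold change of -1.64 instead of -1.92, and all 10 genes kept their call.

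The other Fc receptors in the tables went in both directions. Of 9 further receptor genes 8 could be tested, and 6 were lower and 2 higher. Fcer2a, the low-affinity IgE receptor CD23 of B cells, stood at 29.1 ± 2.04 CPM on elemental diet and 212 ± 12.7 on saline (edgeR adjusted p = 9.4e-14, log2 fold change -2.87, SE 0.07). Fcamr, a receptor for IgA and IgM, was 7.69-fold lower, and Trim21, the cytosolic antibody receptor, 1.96-fold lower. Fcrls was called at an edgeR adjusted p of 0.038, and this call was lost with DESeq2 and on leaving out any of 4 libraries (elemental diet 2 or 3, saline 1 or 2; adjusted p 0.055 to 0.26).

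The 2 that rose encode the other chains of the high-affinity IgE receptor of mast cells and basophils, which also uses the common chain Fcer1g. Fcer1a, its IgE-binding chain, stood at 1.57 ± 0.300 CPM on elemental diet and 0.290 ± 0.0805 on saline (edgeR adjusted p = 4.3e-05, log2 fold change 2.43, SE 0.37). Ms4a2, its beta chain, stood at 3.53 ± 0.791 and 0.394 ± 0.198 CPM (edgeR adjusted p = 1.9e-06, log2 fold change 3.14, SE 0.35). Both are low in these libraries. The 10 mast cell and basophil markers did not move together: 5 were higher, 4 lower and 1, Hdc, not called. The basophil proteases Mcpt8 (10.6 ± 0.654 CPM on elemental diet) and Prss34 (32.3 ± 3.22 CPM) rose from low levels on saline. Mcpt8 stood there at 0.0590 CPM, under the limit of a count of 0, and Prss34 at 0.319 CPM. Their folds rest on these low saline values and moved with the library left out. Kit (56.9 and 13.4 CPM) and Gata2 (34.0 and 21.1 CPM), which progenitors and early erythroid cells also express, rose too, as did Cpa3 by 0.91 on the log2 scale, a call lost without scaling (adjusted p = 0.0503). The 4 that fell all encode mast cell proteases: Tpsab1 by 2.96, Tpsb2 by 1.94, Cma1 by 1.82 and Mcpt4 by 1.61 on the log2 scale. The summed level of the list, 135 to 149 CPM on elemental diet and 46.0 to 55.0 on saline, was mostly Kit, Gata2 and Prss34 on elemental diet and mostly Kit and Gata2 on saline, and is no measure of mast cell or basophil number. The part of these cells in the values of Fcer1a, Ms4a2 and Fcer1g was not tested.

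Further surface proteins that signal through Fcer1g were listed after the data were seen. Of 7, which include Fcer1a described above, 4 were higher and 2 lower on elemental diet, and 1, Oscar, was not called. Without Fcer1a, 3 of 6 were higher. Over all genes tested, 38% were higher and 40.2% lower. Gp6, the collagen receptor of platelets, stood at 122 ± 16.3 CPM on elemental diet and 28.5 ± 1.69 on saline (edgeR adjusted p = 9.3e-09, log2 fold change 2.10, SE 0.10). Clec4e and Clec4d, C-type lectins of activated myeloid cells, were 9.70-fold and 4.98-fold higher. Clec4n, the lectin Dectin-2, was 4.23-fold lower. The other fall, that of Ncr1, an NK cell receptor (edgeR adjusted p = 0.027), was lost with DESeq2 (adjusted p = 0.069) and without elemental diet library 1 (0.060) or 3 (0.058) or saline library 1 (0.12). The listed partners thus included some that rose and some that fell, and so short a list cannot be set apart from the shares over all genes. The bearing of these partners on the value of Fcer1g was not tested.

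Markers of the cell types that carry these receptors differed between the groups as well. All 14 B cell markers were lower, with a median log2 fold change of -2.74 and a summed level of 1262 to 1356 CPM on elemental diet and 9080 to 9530 on saline. Of 18 macrophage and monocyte markers 16 were lower and 2, Cd14 and Cd163, were not called, with a median of -1.20. Both were called lower with upper quartile scaling and without scaling. Of the 16, Adgre1 (log2 fold change -0.52) lost its call in 5 of 16 alternatives. These were no filter, the replicate block, and leaving out elemental diet library 1 or saline library 1 or 2 (adjusted p 0.053 to 0.14). Lyz2, lysozyme, was 4.08-fold lower and Siglec1, of macrophages that line blood and lymph spaces, 7.33-fold lower. Among 9 NK cell markers tested, 8 were lower, and their summed level of 22.5 to 25.1 against 103 to 116 CPM was far below that of B cells.

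Neutrophil markers went the other way, with 14 of 14 tested higher, a median of 4.45 and a summed level of 288 to 334 CPM on elemental diet and 23.6 to 26.5 on saline. The rises were unequal. Elane, Ltf and Ngp had saline means of 0.040, 0.049 and 0.089 CPM, under the limit of a count of 0, and their folds rest on these low values. Cxcr2 rose by 0.35 on the log2 scale (11.2 and 8.74 CPM), Mmp9 by 1.71 and Csf3r by 2.48. Erythroid markers were higher in 10 of 10 and cell division markers in 10 of 10. In the receptor genes themselves, the part of any of these cell types was not tested.

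Genes most like each receptor gene were found by the root mean square difference in centred log2 CPM over the 6 libraries, a description of these libraries only. For Fcrl1 they were Hvcn1 (0.0281), H2-DMb2 (0.0523) and Cd22 (0.0545), and for Fcmr they included H2-DMb2 (0.0261) and Gimap3 (0.0529). Ms4a1, which encodes CD20, was nearest to Fcrla (0.0356), followed by Bach2 (0.0370) and Napsa (0.0376). For Fcrl5 they were H2-Q4 (0.0134), Lpgat1 (0.0274) and Eml4 (0.0278), none of which is on the B cell marker list. Nearest to Fcgr2b were Cacna1i (0.0621), Ifi214 (0.0749) and Hvcn1 (0.0866), farther off than the nearest genes of Fcrl1, Fcmr, Fcrla and Fcrl5. Armcx5 was nearest to Fcer1g (0.0156), Iffo2 to Fcgr3 (0.0370), Ky to Fcgr4 (0.0792), Fgl2 to Fcgr1 (0.0863) and Meis2 to Fcgrt (0.0363). None of these nearest genes is on a cell type marker list. The measure includes the difference between the groups, so genes of similar fold change lie near each other whatever their cell type.

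Most immunoglobulin genes of the list fell alongside the receptors. Of 13 genes of immunoglobulin constant regions and the J chain, 12 were lower and none higher, with a median of -2.70. These count light chains, among them Igkc, Iglc1 and Iglc3, with log2 fold changes of -3.32, -4.14 and -2.77, and Jchain, with -2.11. The median is therefore not that of the heavy chains alone. Ighm stood at 1085 ± 41.1 CPM on elemental diet and 8724 ± 343 on saline (log2 fold change -3.01, edgeR adjusted p = 6.7e-15). Ighd and Igha were 10.9-fold and 10.4-fold lower. The IgG heavy chains, ligands of the Fcgr genes and of Fcgrt, were lower by less: 3.17-fold for Ighg1, 2.81-fold for Ighg2b, 3.13-fold for Ighg2c and 3.53-fold for Ighg3. With replicate number as a block, the calls of Ighg1 (adjusted p = 0.052) and Ighg2b (adjusted p = 0.065) were lost. Ighe, the heavy chain of IgE, was not called (log2 fold change 1.30, edgeR adjusted p = 0.09). B2m, the partner of Fcgrt, stood at 866 ± 14.6 and 1582 ± 11.6 CPM, a 1.83-fold fall beside the 1.93-fold fall of Fcgrt.

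Downstream of the activation motif, 21 of 24 signalling genes were lower, 1 higher and 2 not called, with a median log2 fold change of -1.19. Blnk, the adaptor of B cell signalling, was 5.02-fold lower, and Pik3cd, a lipid kinase subunit of leukocytes, 4.20-fold lower. Syk, the kinase that binds the phosphorylated motif, stood at 281 ± 15.5 CPM on elemental diet and 848 ± 12.4 on saline (edgeR adjusted p = 1.9e-12, log2 fold change -1.59, SE 0.05). Lyn, which phosphorylates both activating and inhibitory motifs, was 2.26-fold lower and Tyrobp, another chain with an activation motif, 2.16-fold lower. The 1 that rose, Gab2, a docking protein, was 1.35-fold higher, and its call was lost with upper quartile scaling and without scaling. Lcp2 and Vav3 were not called, with log2 fold changes of -0.08 and 0.0041. Both were lower and called with upper quartile scaling and without scaling.

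Downstream of the inhibitory motif, 7 of 11 genes were lower and 4 higher, with a median of -0.60. Dok3, an adaptor of B cells and myeloid cells, was 5.20-fold lower, and Ptpn6, the phosphatase SHP-1, 2.97-fold lower. Inpp5d, the lipid phosphatase SHIP1 that Fcgr2b recruits, stood at 154 CPM on elemental diet and 248 on saline, 1.61-fold lower (edgeR adjusted p = 1.6e-07), against 9.14-fold for Fcgr2b. The 4 that rose were Ptpn11, the phosphatase SHP-2, at 2.57-fold higher, Shc1 at 2.25-fold, Dok2 at 1.81-fold and Dok1 at 1.14-fold. Dok1 changed sign with upper quartile scaling and without scaling.

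Fcrla, Fcgr2b, Fcgr4, Fcgr3 and Fcer1g, 5 of the 10 receptor genes, lie together on chromosome 1, from 170917576 to 171234365. This stretch holds 12 coding genes in all, and of the other 7 genes 6 could be tested: 3 were higher, none lower and 3 not called. Sdhc, a subunit of succinate dehydrogenase, stood at 124 CPM on elemental diet and 61.1 on saline (log2 fold change 1.02, SE 0.05). Tomm40l and Pcp4l1 were higher by 1.14 and 0.74 on the log2 scale. Those not called included Cfap126 (0.37) and Nr1i3 (1.66). Of the tested coding genes among the 5 receptor genes, none other was called lower.

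**Figure D5:**
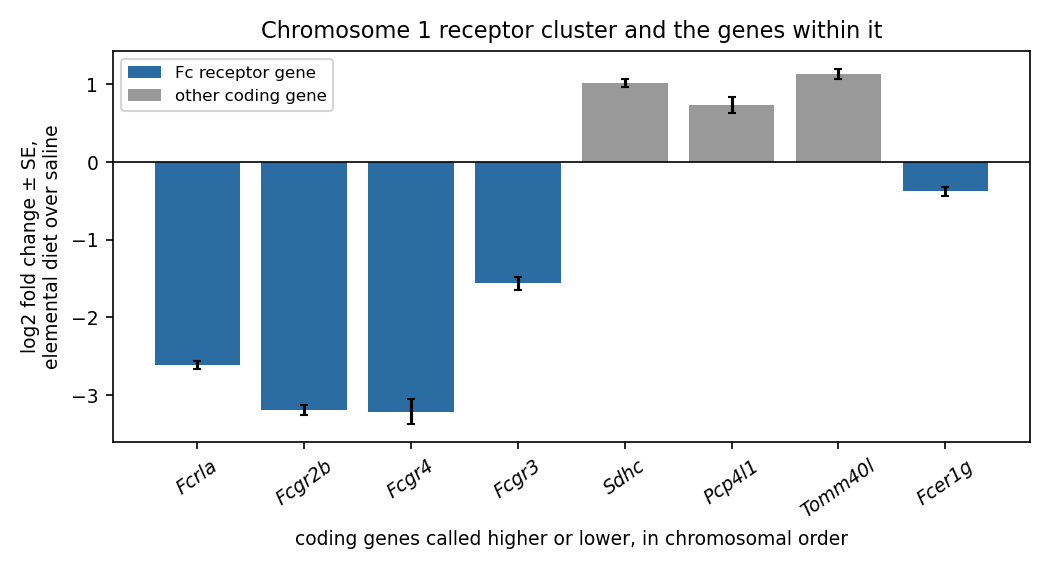
Log2 fold change, elemental diet over saline, as bars with lines of 1 SE, of the coding genes called higher or lower from Fcrla to Fcer1g on chromosome 1, in their order on the chromosome. The 5 Fc receptor genes lie below 0, from -0.38 for Fcer1g to -3.21 for Fcgr4, and Sdhc, Tomm40l and Pcp4l1 lie above 0.

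The promoters of 4 receptor genes that fell by different amounts are shown because they share a short sequence. The 250 bases before each start in the RefSeq promoter table (GRCm38.p6), in which all 10 genes were matched, were searched on both strands for GAGGAA, a core bound by PU.1 and other ETS factors. Fcgr1, Fcgr3, Fcgr4, Fcmr, Fcrl1 and Fcrla held it, 6 of 10, as did 23.3% of the 32851 promoters in the table. Not every window lay before the gene. Annotated exons of the same gene (GENCODE M21) covered 187 of the 250 bases for Fcgr2b and 108 for Fcmr, but at most 29 for any other gene. The Fcgr2b and Fcgr3 windows lay wholly inside their genes, and the Fcmr match, at position -36, lay in an exon. The last 120 bases of the searched window are printed 5′ to 3′ on the gene's strand, with the motif in capitals, read as TTCCTC where it lies on the opposite strand. The Fcgr1 line also has a TTCNNNGAA match, the pattern bound by STAT factors, in capitals (TTCCCAGAA).
Fcrl1, chr3:87376267-87376386, plus strand: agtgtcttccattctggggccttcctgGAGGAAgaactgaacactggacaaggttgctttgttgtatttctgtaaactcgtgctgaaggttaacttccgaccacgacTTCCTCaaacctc
Fcrla, chr1:170927584-170927703, minus strand: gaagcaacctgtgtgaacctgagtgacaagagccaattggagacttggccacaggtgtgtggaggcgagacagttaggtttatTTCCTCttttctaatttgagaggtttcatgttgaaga
Fcgr4, chr1:171018806-171018925, plus strand: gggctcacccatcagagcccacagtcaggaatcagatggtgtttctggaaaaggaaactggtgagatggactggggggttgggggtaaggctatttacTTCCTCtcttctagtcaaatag
Fcgr1, chr3:96293970-96294089, minus strand: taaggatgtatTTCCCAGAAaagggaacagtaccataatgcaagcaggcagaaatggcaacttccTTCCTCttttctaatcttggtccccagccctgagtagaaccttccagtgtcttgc

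Fcgr4, with a fall of 9.28-fold, and Fcgr1, with a fall of 1.74-fold, both held GAGGAA. TTCNNNGAA was found only in Fcgr1 among the 10 genes and in 7.02% of all promoters. ATGCAAAT, the octamer, the palindrome bound by EBF factors and AGATAA, bound by GATA factors, were in none of the 10 windows and in 1.60%, 0.779% and 9.99% of all promoters. A match is a description of the letters in the window and no evidence of binding.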

How the data were processed

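RNA-seq was analysed from 6 libraries, 3 of the elemental diet group and 3 of the saline control group, grouped by the title and diet labels. Poly(A) RNA was sequenced in pairs of 75 bp, per the labels' protocols, which say that RNA came from fibroblasts or keratinocytes although the tissue label is salivary gland. The authors' deposited tables, 1 per library, give whole-number read counts per gene, per the file headers, as total and unique reads in exons and introns. The TPM and RPKM columns and the fraction of intron reads were also computed by the authors, per the file headers; TPM was used for levels across genes, and RPKM and the deposited fraction for no result. Aligner, counting tool and use of strand were not given in the sources used here. Builds GRCh37 and GRCm38 appear in the submitters' processing notes; coordinates were taken from the files, and for all 10 genes they equal GENCODE M21 of GRCm38.

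Total gene reads (exon plus intron) were tested with the two-sided quasi-likelihood test of edgeR 4.0.16 (R 4.3.3; glmQLFit, robust, and glmQLFTest) after TMM scaling and filterByExpr, with Benjamini-Hochberg adjustment over 18303 genes at 0.05. CPM values use the TMM factors, and SE is the approximate standard error of the log2 fold change. Library totals ran from 29053287 to 33073125 reads, and the reads carry no molecular identifiers used here. Ratios are log2 of reads plus 0.5 within a library, tested by exact two-sided permutation. Likeness used log2 of CPM plus 0.25 for genes of at least 1 CPM on average. Replicates differed by more than sampling noise in every pair (smallest median chi-square 2.29 times its expectation). Whether replicate numbers pair the libraries was left undecided. Deviations of same-numbered libraries correlated at 0.16, -0.03 and 0.13 over 15496 genes, and those of differently numbered libraries at -0.18 to 0.086. The values for numbers 1 and 3 were the highest of all pairs, and 3 libraries per group are too few to exclude pairing. Scripts were tested on simulated data. The rule for named genes took all 10 receptor genes, up to 4 genes of smallest p in each list, genes in the ratios and 3 like genes per receptor gene; others were chosen after their values were seen, and not every gene the rule takes is described. Of 206 list symbols 205 were found. The receptor genes and lists were chosen with earlier results of these data known. Alternatives were other scalings, DESeq2 1.42.0, read classes, filters, a replicate block and leaving out each library. Some results for named genes, 3 ratios among them, are not reported here.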

Additional observations from a re-analysis of the deposited data

How the results depend on the processing

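Under 16 alternatives, the 10 receptor genes kept their direction and call in 160 of 160 values, with a largest adjusted p of 0.0056 (Fcgr1 without saline replicate 2). Their log2 fold changes ran from -0.69 to -0.33 for Fcer1g and from -1.10 to -0.69 for Fcgr1, the widest relative ranges. With replicate number as a block, all 10 genes stayed lower (Fcer1g -0.38), 7316 genes were lower and 6925 higher, and of the named genes Ighg1, Ighg2b and Adgre1 lost their calls; elemental diet library 2 correlated best with saline library 3, not with its own number. The median of all genes was -0.35 with upper quartile scaling, -0.39 without scaling and -0.25 without the filter. The count of signalling genes higher was 0 with upper quartile scaling and 0 without scaling. Leaving out hemoglobin and immunoglobulin genes left 1 gene of the immunoglobulin and J chain list lower and 6 erythroid genes higher, by construction. With exon reads, 2 salivary markers were lower. Over left-out libraries, genes higher in the immunoglobulin and J chain list ran from 0 to 1 (Ighe without elemental diet replicate 1, 1.60). The Fcgrt to B2m log2 difference ran from -0.22 to 0.0064 (without elemental diet replicate 2). Signs changed for Cd14 (0.0138 with DESeq2 size factors, 0.0138 with DESeq2, -0.0904 to 0.0932 over left-out libraries), Oscar (-0.0145 with upper quartile scaling, -0.0517 without scaling), Dok1 (-0.0774 and -0.11), Vav3 (-0.27 and -0.31, -0.0076 without hemoglobin and immunoglobulin genes, -0.0243 with unique reads, -0.00042 with the block, -0.0315 to 0.10 over left-out libraries) and Lcp2 (0.0618 with unique reads, -0.15 to 0.0293 over left-out libraries). Over left-out libraries the log2 fold change of Mcpt8 ran from 6.81 to 8.24 and that of Prss34 from 6.27 to 7.71. Hdc ran from -0.31 to 0.0578 over left-out libraries. The causes were not tested. Of 2156 values of named genes, 60 changed their call or sign. The lowest count of a receptor gene in a library was 50 reads, for Fcgr4.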

Other observations

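Fcrla and Fcgr1, on different chromosomes, share a run of 15 bases in their promoters, noticed after the sequences were seen: ttcctcttttctaat. It holds the GAGGAA match of both genes and starts at position -37 of Fcrla and -55 of Fcgr1, counted from the start site. The same 15 bases occur in 3 of the 32851 promoters of the table. The next longest run shared by promoters of 2 receptor genes was 12 bases, between Fcer1g and Fcrl5.

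All T cell markers of the list (10 of 10) were lower, as the receptor genes were, with a median log2 fold change of -2.94, and of 8 plasma cell markers 7 were lower and 1 higher, with a median of -1.42. Of 10 dendritic cell markers 5 were lower and 4 higher, and of 8 endothelial markers 6 were lower and 1 higher.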
